A study of Mus musculus with 18 samples.

Results

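Gene expression in the lateral septum (LS) of all postpartum mice, whether or not they still had pups, was compared with that of virgin mice. The 12 postpartum arrays, 6 from lactating maternal and 6 from pups removed mice, were pooled against the 6 virgin arrays, so every one of the 18 arrays of the series was used. All mice were outbred hsd:ICR females about 70 days old, and each gave 1 bilateral LS micropunch sample and 1 Affymetrix Mouse Gene 1.0 ST array. Maternal mice kept a litter set to 11 pups until brains were taken on postpartum Day 7. Pups removed mice also gave birth but lost their pups on Day 2, and their brains were taken on Day 7 too. Virgin mice had spent the mating period with other females instead of a male, after which all mice lived alone. Virgin and pups removed mice were all in diestrus, whereas no cycle stage is given for maternal mice. No group carries a transgene, and mating, pregnancy, birth and exposure to pups cannot be told apart in the pooled comparison.

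The LS is a GABAergic nucleus between the lateral ventricles that takes part in fear, social behavior and maternal aggression. It lies beside the striatum and beside the ventricular wall, where neural stem cells persist in the adult mouse, give rise to dividing transit amplifying cells and then to migrating neuroblasts. The rate of this division is known to change with pregnancy and lactation in rodents. The pooled comparison asks how the LS of mice that have been pregnant and given birth differs from that of virgin mice, with or without pups at hand.

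Few genes differed between postpartum and virgin LS, and by small amounts. Among genes of cell division Nusap1 fell by 0.21 and Ect2 by 0.22 on the log2 scale, and among genes of neural stem cells Nes fell by 0.18 and Egfr by 0.15 (12 postpartum against 6 virgin arrays, SE 0.05, 0.05, 0.04 and 0.04). Camta1, a transcription activator, rose by 0.17, the mitochondrial fusion gene Mfn1 by 0.18 and the microRNA gene Mir151 by 0.32 (SE 0.03, 0.04 and 0.06). In each of these genes maternal and pups removed mice departed from virgin mice in the same direction, which their choice by the pooled difference largely fixes. The falls of Nusap1 and Egfr were larger in maternal mice, with a 95% interval of maternal minus pups removed that excluded 0. Neither gene passed in that comparison after adjustment. Of the 11 measured genes of the stem cell list, 10 were lower than virgin in maternal mice but 4 in pups removed mice. All of the pooled calls named here were lost when virgin replicate 2 was left out. Their differences kept their direction, which their choice with all arrays largely fixes.

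The values are log2 signals, on which a difference of 1 is a 2-fold change, and all differences below are postpartum minus virgin unless another direction is named. Of 35557 targets (probesets), 21789 are assigned to exactly 1 gene by the platform annotation, for 19938 genes, and results are given for these. Arrays were much alike, with medians of 7.61 to 7.70 and pairwise Pearson r of 0.9933 to 0.9973 across targets, which are not independent replicates. Each target was fitted in limma with a mean for each of the 3 groups, and targets with a Benjamini-Hochberg adjusted p under 0.25, the study's threshold, are called here. In this sense 295 targets passed in the pooled comparison, 0.830% of all, and 73 of those with 1 gene, 0.335%. These 73 targets represent 70 genes. The signal rose for 46 (0.211%) and fell for 27 (0.124%). Of the 295, 138 are targets without a gene name, described further on as a numbered block. When p was adjusted over the 21789 targets with 1 gene alone, none of them passed in limma, with 1528 at an unadjusted p under 0.05. That balance depended on scaling, since after quantile normalization 25 rose and 75 fell, and with each array centred on its median 19 rose and 66 fell. No target passed 0.05, where 3389 had an unadjusted p under 0.05 in limma, among them 1528 with 1 gene (7.01%), of which 799 were higher (3.67%) and 729 lower (3.35%). At 0.10, 23 passed, of which those for Mir151 and Camta1 have 1 gene.

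Differences were small. Over the 73 called targets the median size was 0.18 on the log2 scale, the largest fall was 0.50 and the largest rise 0.49 (Adam4, an ADAM protease gene named for its size after its values were seen, from 7.32 to 8.71 in virgin and from 8.48 to 8.83 in postpartum mice, and 0.32 higher without virgin replicate 2, which had the 7.32). For comparison, the median difference over all 21789 targets with 1 gene was 0.00, and 49.8% were higher and 49.6% lower. Single arrays set how many passed. Without virgin replicate 2, 5 of all targets passed and none of the 73 did, with 2281 at an unadjusted p under 0.05. The differences themselves kept their direction in all 73, and their median ratio to the values with all arrays was 0.92. Their choice with all arrays largely fixes that direction, so nothing is read from it. Leaving out virgin replicates 1, 3 and 6 in turn gave 155, 108 and 1067 calls. Leaving out maternal replicates 2, 4, 5 and 6 gave 108, 111, 47 and 48, and leaving out pups removed replicates 1, 3, 4 and 6 gave 95, 129, 55 and 152. Each of the 73 calls held in 2 to 17 of the 18 fits that leave out 1 array, with a median of 6. Virgin replicate 2 also had the lowest median, 6.73, over 6618 unnamed targets that form a numbered block apart from the rest, whose medians were 6.90 to 7.09 on the other virgin and 7.02 to 7.10 on the postpartum arrays. The part of this in the calls was not tested.

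**Figure D1:**
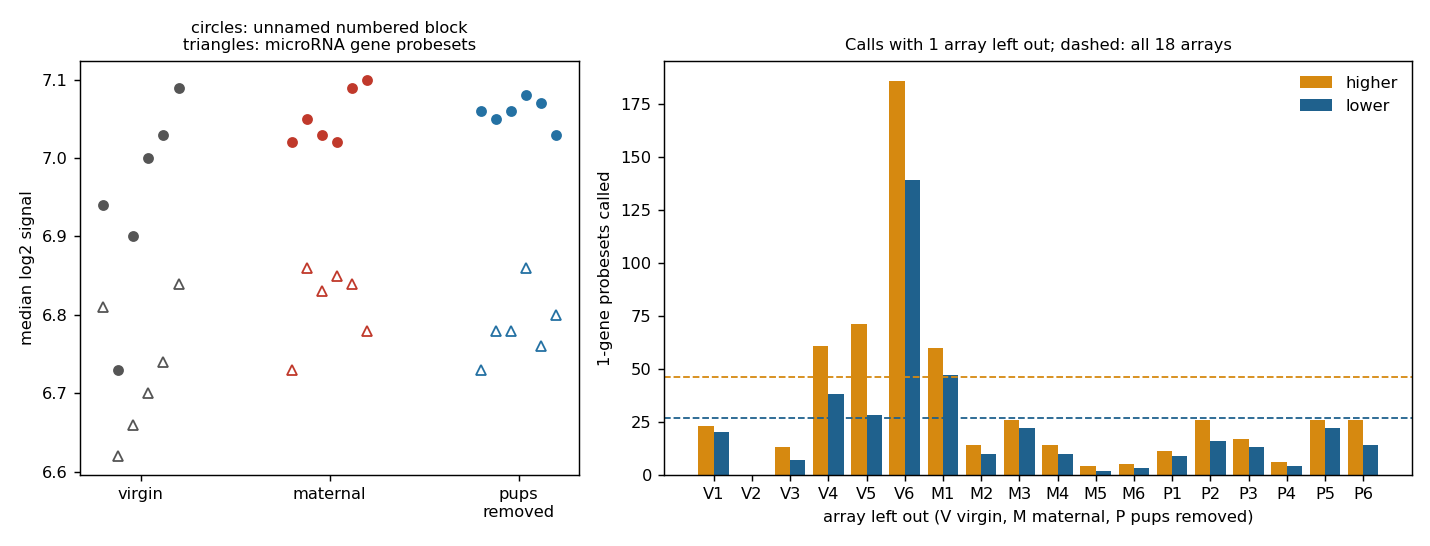
Left, the median log2 signal of the unnamed numbered block of targets and of the microRNA gene targets on each of the 18 arrays. Right, the number of targets with 1 gene called higher or lower when each array in turn is left out, with dashed lines at the 46 higher and 27 lower calls of the fit with all arrays. Virgin replicate 2 has the lowest block median, 6.73, and no target with 1 gene is called without it.

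In all 73 called targets maternal and pups removed means deviated from virgin mice in the same direction. The 73 were chosen for the mean of the 2 group differences. This largely fixes a shared direction and a pooled difference larger than that between the groups, so nothing is read from either. The choice does not make the difference between maternal and pups removed mice itself small. Its median size was 0.055 over the 73 targets, against 0.045 over all 21789 targets with 1 gene. It was smaller than the pooled difference, of median size 0.18, in 67 of the 73 (in 8882 of all 21789). None of the 73 passed for maternal minus pups removed, where the smallest limma adjusted p was 0.278. The background of that comparison was 11 of 35557 targets, 0.0309%, and 6 of 21789 with 1 gene, 0.0275%. The count of 11 rested on single arrays, and became 719 without pups removed replicate 4, 204 without maternal replicate 1, 30 and 19 without virgin replicates 5 and 4, and 6 and 5 without maternal replicates 3 and 4. The 95% interval of the difference between the postpartum groups held 0 in 55 of the 73, with a median half-width of 0.11. Its largest value was 0.31, for Vmn1r58. Risen and fallen targets are given apart. The 46 risen targets had a median of 0.19 in maternal minus virgin and 0.19 in pups removed minus virgin. The 27 fallen targets had medians of -0.20 and -0.11. Both sets of values share the 6 virgin arrays. An unadjusted p under 0.05 for maternal minus pups removed was seen in 12 of the fallen and 6 of the risen targets, against 10.1% of all targets with 1 gene. Maternal mice were the farther group from virgin in 25 of the 27 that fell and in 22 of the 46 that rose, against 11918 of all 21789. Whether this differs between the risen and the fallen genes was not tested.

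**Figure D2:**
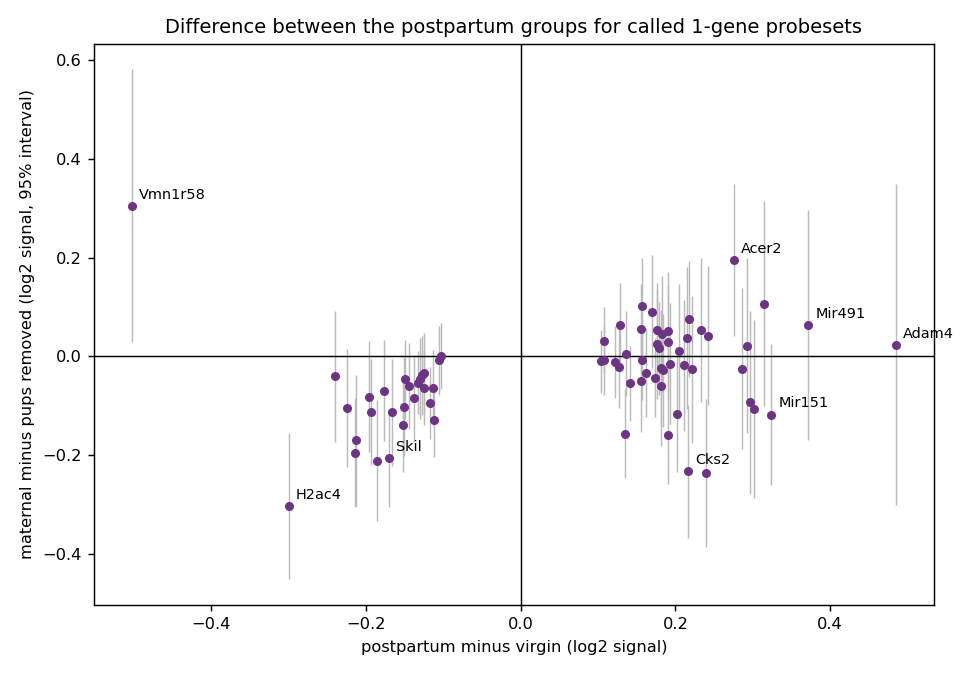
Each point is 1 of the 73 called targets with 1 gene. The x axis is the pooled postpartum minus virgin difference and the y axis the maternal minus pups removed difference, both in log2 units, with bars for the 95% interval. In 55 the interval holds 0, and among the fallen targets most points lie under 0, where maternal mice are lower than pups removed mice.

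The groups of arrays did not overlap in 4 of the 21789 targets with 1 gene (0.0184%), of which Jpt1 and Aar2 were lower (0.00918%) and Ppp1r12b and Psme4 higher (0.00918%). Aar2 and Psme4 were named for this after their values were seen. Jpt1, a microtubule-associated protein of the Jupiter family, was the fallen gene with the smallest p. Its log2 signal ran from 9.70 to 9.76 with a median of 9.72 in virgin mice, from 9.49 to 9.62 with a median of 9.56 in maternal mice, and from 9.54 to 9.67 with a median of 9.63 in pups removed mice. All 12 postpartum arrays were thus below the lowest virgin array, and the mean fell by 0.13 (SE 0.03, limma adjusted p = 0.11). Without virgin replicate 2 the difference was -0.13 (adjusted p = 0.29). Aar2, a factor of spliceosome assembly, read 8.57 to 8.65 on virgin and 8.43 to 8.56 on postpartum arrays and fell by 0.10 (SE 0.03, limma adjusted p = 0.226). The mean of each postpartum group fell by 0.10. Among the risen genes, Ppp1r12b encodes a subunit that targets protein phosphatase 1 to myosin. Its signal ran from 8.58 to 8.69 (median 8.65) on the virgin arrays and from 8.70 to 8.93 (median 8.78) on the postpartum arrays, a rise of 0.14 (SE 0.03, limma adjusted p = 0.184). The other 6 targets of Ppp1r12b were not called and differed by -0.07 to 0.10, so 1 of 7 targets shows the rise. Psme4, a proteasome activator, ran from 9.45 to 9.71 (median 9.67) on the virgin arrays and from 9.72 to 9.85 (median 9.79) on the postpartum arrays and rose by 0.14 (SE 0.04, limma adjusted p = 0.214). Without virgin replicate 2 the difference was 0.10.

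Most genes of the cell cycle list were lower in postpartum LS. Of 44 measured members 2 were called lower, Nusap1 and Ect2, against 0.124% of all targets with 1 gene. Nusap1, which bundles microtubules of the mitotic spindle, ran from 6.67 to 6.87 with a median of 6.80 in virgin mice, from 6.35 to 6.60 with a median of 6.48 in maternal mice, and from 6.49 to 6.75 with a median of 6.69 in pups removed mice. It was below every virgin array on 7 of 12 postpartum arrays and fell by 0.21 (SE 0.05, limma adjusted p = 0.154). Against virgin mice the difference was -0.31 in maternal (limma adjusted p = 0.102) and -0.12 in pups removed mice (adjusted p = 0.59). The 95% interval of maternal minus pups removed, -0.30 to -0.09, excluded 0, so the fall of Nusap1 was mostly that of maternal mice. Ect2, the exchange factor that activates RhoA in cytokinesis, ran from 6.95 to 7.13 with a median of 7.05 in virgin mice, from 6.66 to 6.92 with a median of 6.76 in maternal mice, and from 6.74 to 7.03 with a median of 6.85 in pups removed mice. It was below every virgin array on 10 of 12 and fell by 0.22 (SE 0.05, limma adjusted p = 0.182), with -0.28 in maternal and -0.17 in pups removed mice. Close to the threshold, Mcm6, a subunit of the replicative helicase, differed by -0.21 (adjusted p = 0.259 in limma), and Kif11, the motor that separates the spindle poles, by -0.24 (adjusted p = 0.259). Of 44 measured members of the cell cycle list, 38 were lower, 5 higher and 1 at 0, and 13 had an unadjusted p under 0.05, all lower, against 3.35% of all targets with 1 gene. The list's median difference was -0.08, with -0.12 in maternal minus virgin and -0.04 in pups removed minus virgin. Neither Nusap1 (-0.20) nor Ect2 (-0.21) passed without virgin replicate 2, and then 39 of the 44 were lower with a median of -0.07. In tissue RNA, fewer dividing cells and less of these transcripts per cell cannot be told apart.

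Rfc5, a subunit of the clamp loader that places PCNA on DNA, is a replication gene that the list did not hold. It ran from 8.69 to 8.89 (median 8.79) on the virgin arrays and from 8.51 to 8.73 (median 8.65) on the postpartum arrays and fell by 0.15 (SE 0.03, limma adjusted p = 0.182), with -0.17 in maternal and -0.13 in pups removed mice. In the opposite direction, Cks2, a small subunit of cyclin-dependent kinases that is also outside the list and was picked after its values were seen, rose by 0.22 (SE 0.06, limma adjusted p = 0.211). It ran from 6.91 to 7.32 (median 7.17) on the virgin arrays and from 7.13 to 7.60 (median 7.34) on the postpartum arrays. This target had 0.10 in maternal and 0.33 in pups removed mice. Its 95% interval of maternal minus pups removed, -0.37 to -0.10, excluded 0. The 2 other Cks2 targets, which did not pass, differed by 0.14 and 0.15. Replication-dependent histones, made in S phase, were lower in 20 of 26 measured targets, with a median of -0.07. The member that passed was H2ac4, a copy of histone H2A, whose signal ran from 4.50 to 4.72 (median 4.62) on the virgin arrays and from 4.01 to 4.63 (median 4.32) on the postpartum arrays. It fell by 0.30 (SE 0.06, limma adjusted p = 0.126), with -0.45 in maternal (adjusted p = 0.102) and -0.15 in pups removed mice (adjusted p = 0.615). The 95% interval of maternal minus pups removed for H2ac4, -0.45 to -0.155, excluded 0. Histone genes are near-identical copies, so which copy this target reads is uncertain, and its signal is dim. Of the 26, 1 was called lower and 8 had an unadjusted p under 0.05, all lower, against 0.124% and 3.35% of all targets with 1 gene. H1f1, a linker histone, differed by -0.22 (adjusted p = 0.328 in limma) and H2bc8, an H2B copy, by -0.14 (adjusted p = 0.371). Again 20 of the 26 were lower without virgin replicate 2, with a median of -0.06.

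Genes of neural stem cells were measured in the list of neural stem and transit amplifying cells. Nes, the intermediate filament nestin of neural progenitors, ran from 6.82 to 6.97 with a median of 6.89 in virgin mice, from 6.56 to 6.80 with a median of 6.69 in maternal mice, and from 6.61 to 6.88 with a median of 6.79 in pups removed mice. It was below every virgin array on 11 of 12 postpartum arrays and fell by 0.18 (SE 0.04, limma adjusted p = 0.205). Egfr, the receptor for epidermal growth factor that marks activated stem and transit amplifying cells, ran from 8.77 to 8.98 with a median of 8.86 in virgin mice, from 8.58 to 8.70 with a median of 8.67 in maternal mice, and from 8.68 to 8.91 with a median of 8.78 in pups removed mice. It fell by 0.15 (SE 0.04, limma adjusted p = 0.211), with -0.22 in maternal and -0.08 in pups removed mice. Both groups were lower than virgin mice in each gene, and Nes stood at -0.21 (maternal) and -0.14 (pups removed). Nr2e1, a nuclear receptor that keeps stem cells undifferentiated, did not pass at -0.13 (adjusted p = 0.286 in limma). Of 11 measured members 8 were lower, and the median was -0.03. Of the 11, 2 were called lower and 4 were lower at an unadjusted p under 0.05, against 0.124% and 3.35% of all targets with 1 gene. The list as a whole did not sit alike in the postpartum groups, since its mean signal was 9.09 ± 0.06 for virgin mice, 8.95 ± 0.05 for maternal mice and 9.09 ± 0.05 for pups removed mice (SD, n = 6). Fabp7, the fatty acid binding protein of radial glia, is an example, with -0.48 in maternal and 0.04 in pups removed mice against virgin mice. The list had, without virgin replicate 2, 7 of 11 lower, a median of -0.01, and differences of -0.18 for Nes and -0.13 for Egfr, neither of them called. Among 12 neuroblast genes 10 were lower, with a median of -0.07 and none called. Dlx2, a transcription factor of GABAergic precursors, differed by -0.11, whereas Dcx, doublecortin, differed by 0.06.

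**Figure D3:**
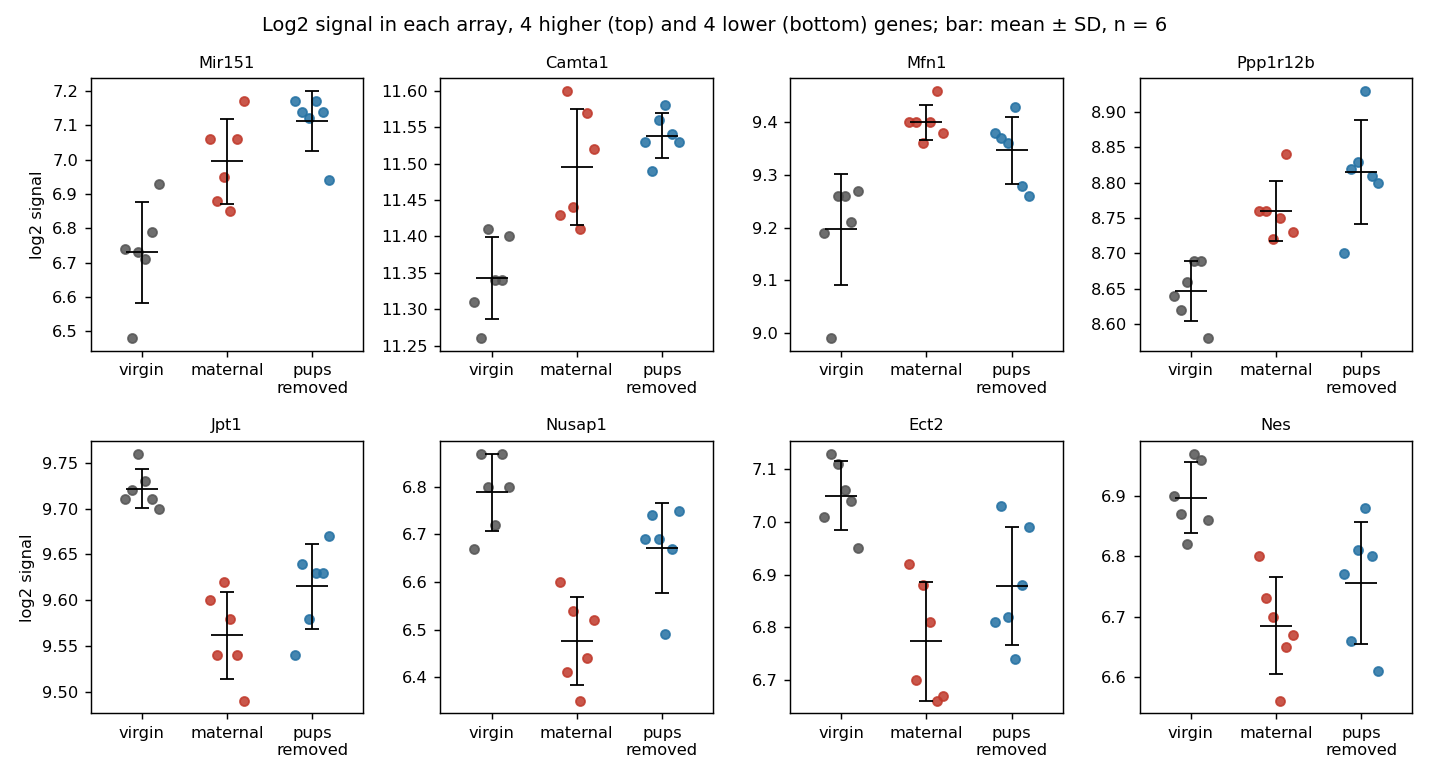
Log2 signal of 8 called genes on every array, by group, with the mean and SD of 6 mice. The upper row holds Mir151, Camta1, Mfn1 and Ppp1r12b, which rose, and the lower row Jpt1, Nusap1, Ect2 and Nes, which fell. Maternal and pups removed means deviate from virgin mice in the same direction in all 8, which their choice by the pooled difference largely fixes. Only Jpt1 and Ppp1r12b have no overlap between virgin and postpartum arrays.

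Markers of tissue next to the LS were lower alongside these genes. Of 31 measured markers of striatal medium spiny neurons 29 were lower, with a median of -0.17 and none called. An unadjusted p under 0.05 was seen in 17, all lower, against 3.35% of all targets with 1 gene. Their mean signal was 9.98 ± 0.08 for virgin mice, 9.65 ± 0.16 for maternal mice and 9.89 ± 0.27 for pups removed mice, so the maternal group was lowest. Single arrays had means of 9.88 to 10.05 for virgin, 9.37 to 9.80 for maternal and 9.50 to 10.16 for pups removed mice. Bcl11b, a transcription factor of these neurons, differed by -0.20 (adjusted p = 0.317 in limma). All 11 choroid plexus markers were lower, with a median of -0.29 (-0.59 in maternal and -0.04 in pups removed mice) and none called. Their array means ran from 7.64 to 9.69 for virgin, 7.68 to 9.18 for maternal and 7.57 to 9.65 for pups removed mice. Ttr, transthyretin, ran from 9.22 to 13.83 (median 13.35) on the virgin arrays and from 8.34 to 13.76 (median 12.57) on the postpartum arrays. Of 11 ependymal markers 10 were lower, with a median of -0.15, -0.31 in maternal and 0.00 in pups removed mice. Leaving out virgin replicate 2 made these medians -0.18, -0.14 and -0.14. The part of tissue makeup in the falls of Nes, Egfr, Nusap1 and Ect2 was not tested. The sampled tissue itself was present in every group. The 12 markers of LS neurons had array means of 10.13 to 10.31 for virgin, 10.17 to 10.33 for maternal and 10.12 to 10.29 for pups removed mice, and none was called.

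**Figure D4:**
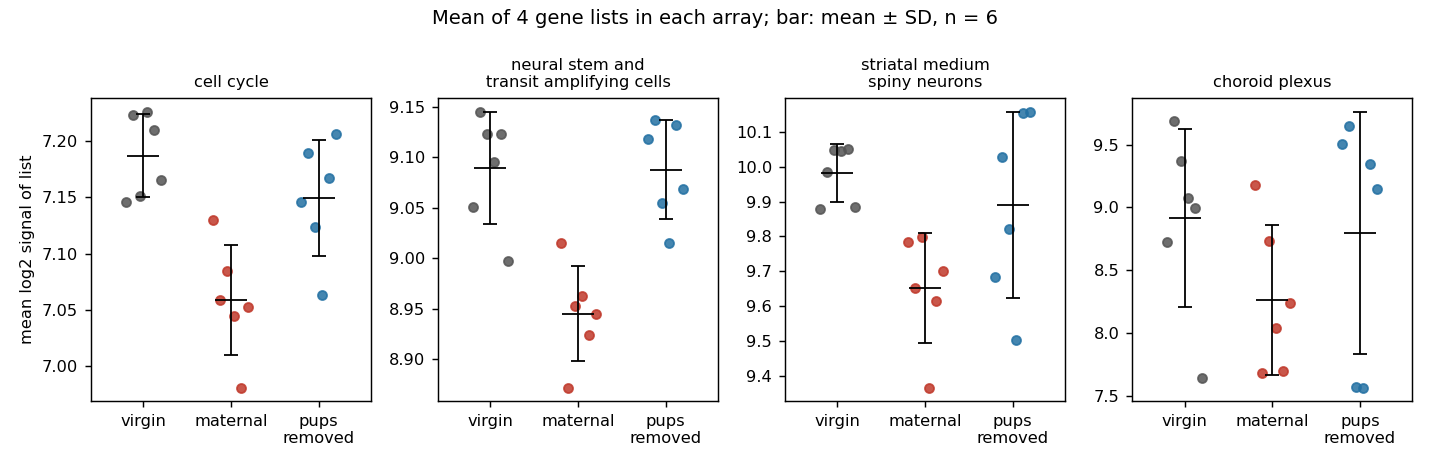
Mean log2 signal of 4 gene lists on each array, by group: cell cycle, neural stem and transit amplifying cells, striatal medium spiny neurons and choroid plexus. Each point is 1 mouse. The choroid plexus means cover nearly the same wide range in all 3 groups, and the striatal means are lowest in maternal mice.

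Promoters of cell cycle genes commonly hold CCAAT boxes and a cell cycle genes homology region (CHR), the sites read by the factors that restrict them to dividing cells. The 250 bases before the start of 4 fallen genes are printed 5′ to 3′ on the gene's strand from RefSeq (GRCm38.p6) for the cell cycle genes that were called, Ect2 and Nusap1, the fallen gene with the smallest p, Jpt1, and the called histone gene, H2ac4, with capitals for CCAAT, its reverse ATTGG, and the CHR letters TTTGAA or TTCAAA on either strand.
Ect2 (chr3:27153879-27154128, - strand): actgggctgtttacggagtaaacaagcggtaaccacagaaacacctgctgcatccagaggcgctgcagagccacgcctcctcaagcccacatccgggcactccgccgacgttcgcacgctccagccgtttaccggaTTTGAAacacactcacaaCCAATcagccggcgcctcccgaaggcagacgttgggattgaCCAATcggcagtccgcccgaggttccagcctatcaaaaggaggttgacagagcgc
Nusap1 (chr2:119618048-119618297, + strand): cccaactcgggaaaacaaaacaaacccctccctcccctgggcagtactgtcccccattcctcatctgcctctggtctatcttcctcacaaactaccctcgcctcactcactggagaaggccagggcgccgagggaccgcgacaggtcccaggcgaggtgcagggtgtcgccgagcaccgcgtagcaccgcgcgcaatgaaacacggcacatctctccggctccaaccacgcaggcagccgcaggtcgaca
Jpt1 (chr11:115514394-115514643, - strand): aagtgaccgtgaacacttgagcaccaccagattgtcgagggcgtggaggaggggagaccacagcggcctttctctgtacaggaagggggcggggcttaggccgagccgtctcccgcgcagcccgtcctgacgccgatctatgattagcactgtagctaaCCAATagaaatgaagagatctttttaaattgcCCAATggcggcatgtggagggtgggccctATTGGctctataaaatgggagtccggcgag
H2ac4 (chr13:23750838-23751087, + strand): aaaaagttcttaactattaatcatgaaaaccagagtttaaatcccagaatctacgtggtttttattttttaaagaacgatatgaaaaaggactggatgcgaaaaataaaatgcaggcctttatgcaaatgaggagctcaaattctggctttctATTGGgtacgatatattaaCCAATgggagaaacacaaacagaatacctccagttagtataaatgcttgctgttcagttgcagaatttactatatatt
The Ect2 stretch holds 2 CCAAT letters, 96 and 55 bases before the start, and TTTGAA 114 bases before it. Jpt1 has 2 CCAAT and 1 ATTGG, the nearest 30 bases before the start, and H2ac4 has 1 of each. The Nusap1 stretch has none of these letters. Over all 27025 promoters in the table a CCAAT box was found in 34.5%, a CHR in 16.3% and both in 5.73%. In the 35 cell cycle genes with a promoter entry a CCAAT box was found in 27 (77.1%), a CHR in 10 (28.6%) and both in 10. Among called genes with an entry, 9 of 23 fallen (39.1%) and 17 of 29 risen genes (58.6%) held a CCAAT box, of which the share in fallen genes lies near that of all promoters. These are matches of letters and not measured binding.

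Other fallen genes came from several functions. Ppp1r14b, an inhibitor of protein phosphatase 1, fell on both of its targets, by 0.20 (SE 0.05, limma adjusted p = 0.205) and by 0.14 (adjusted p = 0.223). The first ran from 8.61 to 8.86 (median 8.74) on the virgin arrays and from 8.39 to 8.74 (median 8.57) on the postpartum arrays. Skil, a repressor of SMAD proteins in TGF-beta signaling, ran from 8.87 to 9.09 with a median of 8.96 in virgin mice, from 8.61 to 8.75 with a median of 8.71 in maternal mice, and from 8.75 to 8.99 with a median of 8.90 in pups removed mice. It fell by 0.17 (SE 0.04, limma adjusted p = 0.205), with -0.27 in maternal but -0.07 in pups removed mice. Skil had the smallest p for maternal minus pups removed of the 73, and the 95% interval of that difference was -0.31 to -0.11. Rplp0, a protein of the ribosomal stalk, fell on both of its targets by 0.13 (adjusted p = 0.211 for each in limma). Its list of cytosolic ribosomal proteins had 42 of 60 lower, a median of -0.02 and no other member called, where 0.124% of all targets with 1 gene were called lower. Rpl7 had -0.18 (adjusted p = 0.308 in limma). Hpcal4, a neuronal calcium sensor, ran from 11.34 to 11.46 (median 11.38) on the virgin arrays and from 11.15 to 11.41 (median 11.23) on the postpartum arrays and fell by 0.15 (SE 0.04, limma adjusted p = 0.211). Med16, a subunit of the Mediator complex, ran from 9.39 to 9.49 (median 9.45) on the virgin arrays and from 9.17 to 9.41 (median 9.36) on the postpartum arrays and fell by 0.12 (SE 0.03, limma adjusted p = 0.211). Against virgin mice Med16 was at -0.165 in maternal and -0.07 in pups removed mice. Clip4, a relative of microtubule plus-end linkers, fell by 0.11 (adjusted p = 0.245 in limma), with -0.18 in maternal and -0.05 in pups removed mice.

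Some fallen genes had dim signals or belong to families best known from other tissues. Vmn1r58, a vomeronasal receptor gene, had the largest fall. It ran from 4.02 to 4.75 with a median of 4.56 in virgin mice, from 3.70 to 4.44 with a median of 4.17 in maternal mice, and from 3.63 to 4.14 with a median of 3.79 in pups removed mice. The mean fell by 0.50 (SE 0.11, limma adjusted p = 0.191), and here pups removed mice were farther from virgin mice (-0.66) than maternal mice (-0.35). H2-M10.4, a nonclassical class I gene of vomeronasal neurons, ran from 6.52 to 6.68 (median 6.67) on the virgin arrays and from 6.24 to 6.67 (median 6.39) on the postpartum arrays and fell by 0.24 (SE 0.05, limma adjusted p = 0.191). Ect2l, a gene related in sequence to Ect2, was called on 1 of 13 targets. That target ran from 6.91 to 7.03 (median 6.95) on the virgin arrays and from 6.56 to 6.92 (median 6.79) on the postpartum arrays and fell by 0.19 (SE 0.04, limma adjusted p = 0.191), while the other 12 differed by -0.09 to 0.11. The called Ect2l target had -0.25 in maternal and -0.14 in pups removed mice. Aif1, the microglial calcium-binding protein also called Iba1, fell by 0.11 (adjusted p = 0.247 in limma). It was the 1 called gene of 14 measured microglia markers, where 0.124% of all targets with 1 gene were called lower. Of the 14, 8 were lower and 6 higher, with a median of -0.03. P2ry12, a microglial purinergic receptor, differed by -0.10, and Tmem119, another microglial marker, by 0.06. Other fallen genes, picked after their values were seen, were Tshr, the thyrotropin receptor (-0.19, adjusted p = 0.239), and Wasf1, an organizer of actin in dendritic spines (-0.13, adjusted p = 0.211).

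Of the risen genes, Camta1 had the smallest p among protein-coding genes. It encodes a calmodulin-binding transcription activator abundant in brain. Its signal ran from 11.26 to 11.41 with a median of 11.34 in virgin mice, from 11.41 to 11.60 with a median of 11.48 in maternal mice, and from 11.49 to 11.58 with a median of 11.54 in pups removed mice. It was above every virgin array on 11 of 12 postpartum arrays and rose by 0.17 (SE 0.03, limma adjusted p = 0.09), with 0.15 in maternal and 0.20 in pups removed mice. The other 3 targets of Camta1 were also higher, by 0.04 to 0.22, and none of them was called. The difference was 0.16 without virgin replicate 2 (adjusted p = 0.306). Mfn1, mitofusin 1, joins the outer membranes of mitochondria. It ran from 8.99 to 9.27 with a median of 9.24 in virgin mice, from 9.36 to 9.46 with a median of 9.40 in maternal mice, and from 9.26 to 9.43 with a median of 9.37 in pups removed mice. The lowest value, 8.99, is that of virgin replicate 2. The mean rose by 0.18 (SE 0.04, limma adjusted p = 0.182) and the difference was 0.14 without that array. Hdac8, a class I histone deacetylase, ran from 8.42 to 8.65 (median 8.57) on the virgin arrays and from 8.64 to 8.80 (median 8.71) on the postpartum arrays and rose by 0.16 (SE 0.04, limma adjusted p = 0.194). Against virgin mice the means were higher in both maternal (0.15) and pups removed mice (0.18). Eml5, a microtubule-associated protein, ran from 7.37 to 7.89 (median 7.67) on the virgin arrays and from 7.84 to 8.17 (median 7.94) on the postpartum arrays and rose by 0.29 (SE 0.07, limma adjusted p = 0.2). Its second target, at 0.14, did not pass.

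Acer2, a ceramidase of the Golgi that releases sphingosine, ran from 7.64 to 7.88 with a median of 7.74 in virgin mice, from 7.89 to 8.36 with a median of 8.11 in maternal mice, and from 7.73 to 8.05 with a median of 7.98 in pups removed mice. It rose by 0.28 (SE 0.06, limma adjusted p = 0.191), with 0.37 in maternal and 0.18 in pups removed mice. Its other target differed by 0.05 and did not pass. Hmcn1, hemicentin, is a large extracellular matrix protein. Of its 77 targets 2 were called, and the first ran from 6.13 to 6.36 (median 6.31) on the virgin arrays and from 6.28 to 6.65 (median 6.45) on the postpartum arrays, a rise of 0.19 (SE 0.04, limma adjusted p = 0.154). The other 75 differed by -0.09 to 0.20, and 59 of them were higher. In the first target, pups removed mice were farther from virgin mice (0.27) than maternal mice (0.11). Abcg2, a drug efflux pump of brain endothelium, was alike in this, with 0.21 and 0.06, and rose by 0.14 (adjusted p = 0.248 in limma). Pard3b, a cell polarity protein, rose by 0.12 (SE 0.03, limma adjusted p = 0.211), but its other target differed by -0.05. It ran from 7.33 to 7.49 (median 7.41) on the virgin arrays and from 7.47 to 7.59 (median 7.51) on the postpartum arrays. Lyz1, a lysozyme whose near copy Lyz2 makes the source of the signal uncertain, rose by 0.24 (SE 0.06, limma adjusted p = 0.205) and ran from 6.64 to 6.99 (median 6.81) on the virgin arrays and from 6.84 to 7.26 (median 7.02) on the postpartum arrays. The dim claudin gene Cldn34b2 rose by 0.22 (SE 0.05, limma adjusted p = 0.184), from a virgin range of 4.15 to 4.49 to a postpartum range of 4.36 to 4.63. The transcripts 4930555F03Rik (0.18, adjusted p = 0.177) and Gm10785 (0.30, adjusted p = 0.211) also rose. Further risen genes, picked after their values were seen, were Kmt2d, Tra2a and Ppid. Kmt2d, a histone H3 methyltransferase, rose by 0.16 (limma adjusted p = 0.243), and its other target, at 0.13, was not called. Tra2a, a splicing regulator, rose by 0.21 (limma adjusted p = 0.212), and its 2 other targets, at 0.05 and 0.10, were not called. Ppid, a cyclophilin that works with heat shock proteins, rose by 0.13 (limma adjusted p = 0.231).

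Of the 46 risen targets 7 lie in microRNA genes. These targets were looked at together after their values were seen. MicroRNAs are short RNAs that repress messenger RNAs matching their seed, bases 2 to 8, and the arrays read RNA of the hairpin locus, so the mature microRNA, its precursor and RNA of the host gene cannot be told apart here. Mir151 had the smallest p of all targets with 1 gene. It ran from 6.48 to 6.93 with a median of 6.74 in virgin mice, from 6.85 to 7.17 with a median of 7.01 in maternal mice, and from 6.94 to 7.17 with a median of 7.14 in pups removed mice. The mean rose by 0.32 (SE 0.06, limma adjusted p = 0.0795), with 0.27 in maternal and 0.38 in pups removed mice, and 10 of 12 postpartum arrays were above every virgin array. The difference was 0.27 without virgin replicate 2 (adjusted p = 0.251). Mir181a-2 ran from 6.65 to 6.81 (median 6.66) on the virgin arrays and from 6.74 to 6.93 (median 6.86) on the postpartum arrays and rose by 0.16 (SE 0.03, limma adjusted p = 0.163), nearly the same in both groups (0.15 and 0.16). Mir378a ran from 6.89 to 7.13 (median 7.07) on the virgin arrays and from 7.06 to 7.35 (median 7.20) on the postpartum arrays and rose by 0.16 (SE 0.04, limma adjusted p = 0.211). Also risen were Mir491 (0.37), Mir26a-1 (0.30), Mir680-2 (0.29) and Mir490 (0.23), each with a limma adjusted p of 0.211.

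The mature sequences of 5 of these 7 genes are shown from RefSeq (GRCm38.p6), 5′ to 3′, with the seed in capitals, because the seed decides which messages each can bind.
mmu-miR-181a-5p (chr2:38852741-38852763, + strand): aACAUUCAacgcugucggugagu
mmu-miR-181a-2-3p (chr2:38852785-38852806, + strand): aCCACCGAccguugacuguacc
mmu-miR-491-5p (chr4:88122057-88122078, + strand): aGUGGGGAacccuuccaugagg
mmu-miR-491-3p (chr4:88122091-88122112, + strand): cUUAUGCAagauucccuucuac
mmu-miR-490-5p (chr6:36421763-36421782, + strand): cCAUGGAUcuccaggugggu
mmu-miR-490-3p (chr6:36421800-36421821, + strand): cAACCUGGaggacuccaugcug
mmu-miR-26a-5p (chr9:119031811-119031832, + strand): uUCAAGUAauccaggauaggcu
mmu-miR-26a-1-3p (chr9:119031850-119031871, + strand): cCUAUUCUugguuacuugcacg
mmu-miR-680 (chrX:144297790-144297810, + strand): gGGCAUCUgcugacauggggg
No 2 of these sequences share a seed, so these 5 genes are not 1 seed family. Among these 5 microRNA genes an overlapping protein-coding gene was found for 4, and none of the 4 overlapping genes passed. Of all targets with 1 gene 0.335% were called, so the absence of calls among 4 is not read as a result. Nr6a1, at Mir181a-2, differed by 0.02 (limma adjusted p = 0.924), and Focad, at Mir491, by 0.04 (adjusted p = 0.806). Chrm2, at Mir490, differed by 0.08 (adjusted p = 0.731), and Ctdspl, at Mir26a-1, by -0.01 (adjusted p = 0.987).

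The class as a whole was shifted a little. Of 305 microRNA targets 223 were higher and 80 lower, with a median of 0.05, and 7 were called higher (2.30%, against 0.211% of all targets with 1 gene) and none lower. The medians of the class were 6.62 to 6.84 on virgin, 6.73 to 6.86 on maternal and 6.73 to 6.86 on pups removed arrays, and the unnamed numbered block had a median difference of 0.08. Without virgin replicate 2, whose class median was the lowest at 6.62, the microRNA median was 0.03, 196 were higher and none was called. After quantile normalization the median was 0.02 and 6 were called. The part of this shift in the 7 rises was not tested.

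The signaling systems for which the LS is known held no called gene. Of all targets with 1 gene 0.335% were called, a share that gives few or no calls in lists of this size. The absence of calls is thus not read as a result about these systems. GABA-A receptor subunits, the receptors of the main transmitter of the LS, had 10 of 16 higher and a median of 0.02. Of the 16, 4 were lower and 1 higher at a limma unadjusted p under 0.05, against 3.35% and 3.67% of all targets with 1 gene. Gabrd, the delta subunit of extrasynaptic receptors, ran from 8.63 to 8.81 (median 8.73) on the virgin arrays and from 8.10 to 8.84 (median 8.45) on the postpartum arrays, with a difference of -0.26 (adjusted p = 0.347 in limma). Gabra4, the alpha4 subunit, differed by -0.15 (adjusted p = 0.371). Genes of GABA synthesis and transport were 5 lower, 1 higher and 1 at 0 of 7, with a median of -0.01. Gad1 differed by -0.03, with -0.02 in maternal and -0.05 in pups removed mice. Among 50 neuropeptides and their receptors 29 were lower and 21 higher, with a median of -0.01. The nearest to the threshold was Hcrtr1, an orexin receptor, at 0.17 (adjusted p = 0.262 in limma), which ran from 7.62 to 7.88 (median 7.82) on the virgin arrays and from 7.69 to 8.10 (median 7.97) on the postpartum arrays. Nmu, neuromedin U, is a gene whose postpartum groups were apart, with 0.40 in maternal and 0.05 in pups removed mice, and its pooled difference of 0.23 did not pass (adjusted p = 0.303). Tacr1, the substance P receptor, differed by -0.14 (adjusted p = 0.373), with -0.14 in maternal and -0.14 in pups removed mice. Further lists of receptors and channels were glutamate receptors (11 of 22 lower, median 0.01), potassium channels (42 of 75 lower, median -0.02), serotonin receptors (7 of 14 lower, median 0.00), dopamine genes (9 of 11 lower, median -0.04) and axon guidance genes (38 of 67 lower, median -0.01). The dopamine list holds Drd1 (-0.23) and Drd2 (-0.17), receptors that medium spiny neurons also express and that did not pass.

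**Figure D5:**
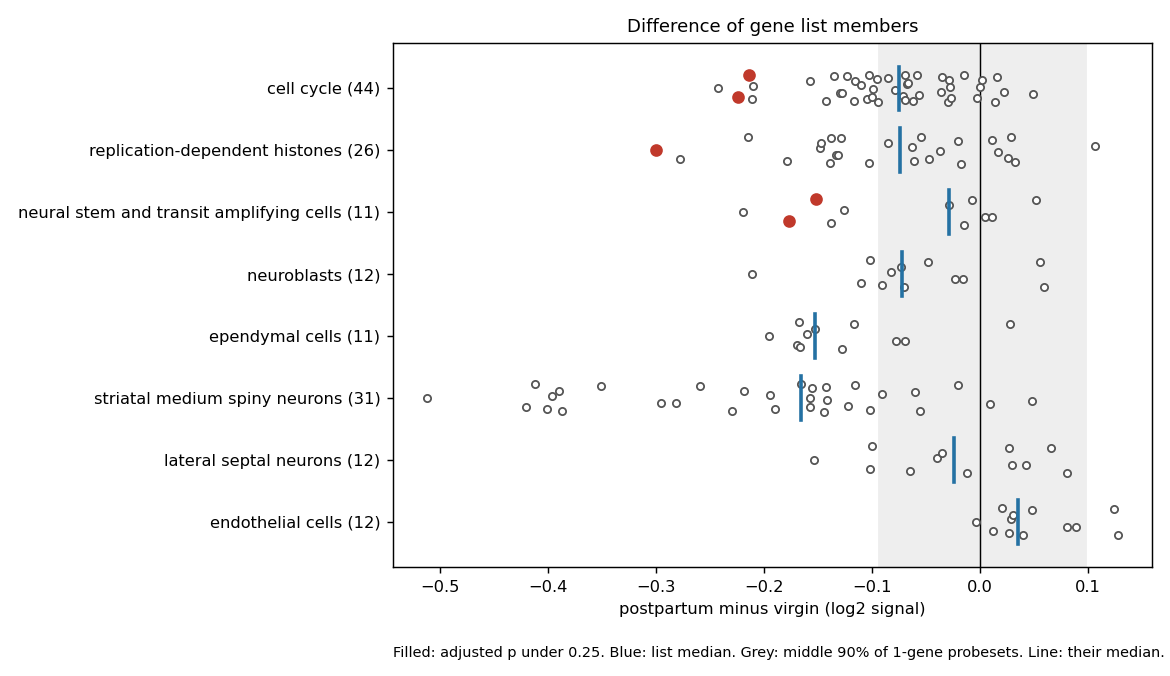
Postpartum minus virgin difference, in log2 units, of every measured member of 8 gene lists. Filled points are called, blue marks are list medians and the grey band spans the middle 90% of all targets with 1 gene, from -0.09 to 0.10. Most cell cycle, ependymal and striatal members lie under 0, and the called members of the 8 lists are Nusap1, Ect2, H2ac4, Nes and Egfr.

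Hormone and stress genes were also without a call, which at a share of 0.335% over all targets with 1 gene is not read as a result. They were steroid receptors and enzymes (5 of 11 lower, median 0.01), prolactin and growth hormone signaling (5 of 9 lower, median -0.01), glucocorticoid-responsive genes (1 of 11 lower, median 0.04), immediate early genes (15 of 18 lower, median -0.06), circadian clock genes (9 of 17 lower, median -0.02) and cold-inducible and heat shock genes (3 of 9 lower, median 0.03). In several of these the pooled mean joined groups that lay apart. Immediate early genes were lower than virgin in 5 of 18 in maternal mice (median 0.07) and in 16 of 18 in pups removed mice (median -0.12), and without virgin replicate 5 only 8 of 18 were lower in the pooled comparison, with a median of 0.01. Socs2, a feedback inhibitor of cytokine receptors that STAT5 induces, had 0.34 in maternal and -0.03 in pups removed mice, and Cish, another such inhibitor, 0.22 and -0.02. Sgk1, a glucocorticoid-induced kinase, had 0.35 and -0.08. Its list of glucocorticoid-responsive genes had 0 of 11 lower than virgin in maternal mice (median 0.06) and 8 of 11 in pups removed mice (median -0.035). Nr4a2, an orphan nuclear receptor induced by activity, was one in which the groups were close, with 0.22 in maternal and 0.21 in pups removed mice, and its pooled difference of 0.22 did not pass (adjusted p = 0.371 in limma). Metabolic and immune lists were oxidative phosphorylation (45 of 62 lower, median -0.01), cholesterol synthesis (14 of 15 lower, median -0.03), retinoid receptors and handling (9 of 16 lower, median -0.01) and interferon response and antigen presentation (7 of 18 lower, median 0.01), with none called. Cholesterol synthesis genes were lower than virgin in 15 of 15 in maternal mice (median -0.07) and in 3 of 15 in pups removed mice (median 0.01). Oxidative phosphorylation had 49 of 62 lower in maternal and 30 in pups removed mice, and the retinoid list 11 and 5 of 16. Single arrays set some of the pooled counts. Without virgin replicate 2, oxidative phosphorylation genes were lower in 23 of 62 (median 0.01) and the interferon list in 2 of 18 (median 0.04), whereas the interferon list was lower in 12 without virgin replicate 4 and in 13 after quantile normalization. Rarb and Rxrg, retinoid receptors high in striatum, differed by -0.39 and -0.30 without passing. The remaining cell types were astrocytes (9 of 14 lower, median -0.02), oligodendrocytes (7 of 15 lower, median 0.01), oligodendrocyte precursors (7 of 8 lower, median -0.02), mural cells (3 of 9 lower, median 0.00), meningeal fibroblasts and matrix (4 of 13 lower, median 0.02), medial septal cholinergic neurons (2 of 6 lower, median 0.01), glutamatergic neurons (1 of 6 lower, median 0.05) and LS neurons (7 of 12 lower, median -0.02). Endothelial markers were higher in 11 of 12, with a median of 0.04 and none called. Over the fits that leave out 1 array the lower members ranged from 1 to 6 in mural cells, 3 to 7 in fibroblasts and matrix, 1 to 5 in cholinergic neurons, 1 to 4 in glutamatergic neurons and 0 to 3 in endothelial cells. Flt1, a VEGF receptor, was the nearest at 0.12 (adjusted p = 0.259 in limma).

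Hemoglobin targets show where pooling joins unlike groups. The 4 targets of adult alpha- and beta-globin name several genes and are thus outside the targets with 1 gene. The embryonic globin genes Hba-x, Hbb-bh1, Hbb-bh2 and Hbb-y have a target of their own and differed by 0.00, 0.02, -0.01 and -0.09 in the pooled comparison, none of them called. The alpha-globin target with the largest pooled difference ran from 11.34 to 12.21 with a median of 11.89 in virgin mice, from 11.83 to 12.35 with a median of 12.16 in maternal mice, and from 8.77 to 10.05 with a median of 9.48 in pups removed mice. Its pooled difference of -1.03 (SE 0.18, limma adjusted p = 0.0667) passed, yet pups removed mice were at -2.34 and maternal mice at 0.29 against virgin mice. Maternal minus pups removed was 2.63, 2.57, 2.64 and 2.70 in the 4 alpha- and beta-globin targets, which are 4 of the 11 called in that comparison. Red cell genes with a target of their own did not pass in the pooled comparison. Alas2, the heme synthesis enzyme of red cell precursors, had 0.13 in maternal and -0.23 in pups removed mice, Slc4a1, the anion exchanger of red cells, 0.08 and -0.13, and Bpgm, an enzyme of red cell glycolysis, -0.05 and 0.00. Whether blood left in the tissue differs between the groups was not tested.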

How the data were processed

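LS RNA of each mouse went on 1 of 18 Affymetrix Mouse Gene 1.0 ST arrays. The log2 signals deposited by the authors had been summarized by PLIER, after background correction within GC bins, using Affymetrix Power Tools 1.12.0, and hold 2 decimals. Per the methods this step also normalized the data, and no separate normalization between arrays is named. The values were used as deposited.

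A linear model with 3 groups was fitted in limma 3.58.1 (R 4.3.3) with empirical Bayes moderation, and the contrast was the mean of the maternal and pups removed groups minus virgin. Maternal minus pups removed came from the same fit. Called means an adjusted p under 0.25, by Benjamini-Hochberg over 35557 targets, the threshold of the study. Arrays have no read depth, and their number limits the precision. The fit was tested on simulated data.

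Named were the 15 higher and 15 lower genes with the smallest p, up to 4 members with the smallest p of each of 37 gene lists, and the 5 called targets with the smallest p for maternal minus pups removed. A gene with several targets enters a list by its brightest, except in the histone list, which holds all targets of its genes. Others were named after their values were seen, as said there. Members and lists were chosen with earlier results of these data known. Lists are described by counts and medians without a test. Alternatives were quantile normalization, median centring, blocking on the replicate number, a filter on dim targets, a 2-group fit, adjustment over targets with 1 gene, an eBayes trend, array weights, stricter thresholds and leaving out each array.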

Additional observations from a re-analysis of the deposited data

Results flagged for a closer look

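In 12 of 132 groups of 6 arrays tested, the highest or lowest array lay far from the rest, where chance flags about 1 in 20. Among the risen genes these were Mir151 in pups removed replicate 6 (6.94), Mfn1 in virgin replicate 2 (8.99), Ppp1r12b in maternal replicate 5 (8.84), Eml5 in maternal replicate 6 (8.17), Mir378a in maternal replicate 2 (7.35) and Abcg2 in maternal replicate 3 (7.08). Among the fallen genes they were Nusap1 in pups removed replicate 4 (6.49), Rfc5 in pups removed replicate 3 (8.73), Ppp1r14b in pups removed replicate 3 (8.74), and H2-M10.4 in virgin replicate 4 (6.52) and pups removed replicate 6 (6.67). The mean of the neuroblast list was low in pups removed replicate 4 (9.28).

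The unnamed numbered block, whose targets carry no gene name, had 138 called targets of 6618 (2.09%), 131 of them higher in postpartum mice. In the 4 hemoglobin targets the postpartum groups differed, with maternal minus pups removed at 2.63, 2.57, 2.64 and 2.70 on the log2 scale.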

How the results depend on the processing

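How many targets passed was not stable. The direction of all 73 calls was the same under every alternative in which they were tested, which their choice in the same arrays largely fixes. The threshold of 0.25 itself allows about 1 false call in 4 over all 295 calls. It gives no such rate for the 73 with 1 gene, of which none passed when adjusted over targets with 1 gene only. With all arrays, 295 targets passed, and 46 with 1 gene rose and 27 fell. Leaving out 1 array gave 5 to 1067 targets, 0 to 186 risen, 0 to 139 fallen, and 5 to 719 for maternal minus pups removed (11 with all arrays). Risen and fallen targets with 1 gene numbered 25 and 75 after quantile normalization, 19 and 66 with each array centred on its median, 79 and 70 among targets with a mean of at least 7, 4 and 4 with array weights, and 0 and 0 when adjusted in limma over targets with 1 gene only, where 1528 had an unadjusted p under 0.05. The fallen numbered 15 in a 2-group fit and 55 with an eBayes trend. In all, 444 targets passed with a mean of at least 7, 47 with array weights, 0 over targets with 1 gene, and 0 and 23 at thresholds of 0.05 and 0.10 (3389 at an unadjusted p under 0.05). Maternal minus pups removed gave 42, 7, 204, 74, 70 and 783 targets under quantile normalization, centring, the mean filter, adjustment over targets with 1 gene, the trend and weights. Quantile normalization without virgin replicate 2, chosen after seeing the data, gave 6 targets in the pooled comparison, 0 risen, 0 fallen, and 32 for maternal minus pups removed. The cause of these shifts was not tested.

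Replicate numbers did not pair the arrays, since same-numbered arrays had correlations of -0.35 to 0.20 in their deviations, over 0.1 in 3 of 18 pairs, and 4 of 36 best matches had the same number. With the replicate number as a block 224 targets passed, 27 with 1 gene rose and 18 fell, and 9 passed for maternal minus pups removed. RNA was prepared in matched triplets that the labels do not tie to these numbers.

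Directions reversed in genes with differences near 0 and none called. Slc5a7 ran from -0.0047 to 0.0693 without 1 array (-0.0015, -0.0037 and -0.0047 without virgin replicate 5 and pups removed replicates 3 and 4). Ngfr was -0.0083 by quantile normalization, -0.0117 by centring, -0.008 with array weights, -0.0159 by quantile normalization without virgin replicate 2, and -0.0232 to 0.0437 without 1 array (-0.0003 without virgin replicate 2, -0.0063 without virgin replicate 4, -0.0002 without maternal replicate 5, -0.0232 without pups removed replicate 4). Neurod2 ran from -0.0017 (without virgin replicate 3) to 0.1023 and Slc17a6 from -0.0103 (without virgin replicate 5) to 0.1952. Slc4a1 ran from -0.0608 to 0.0172 (without virgin replicate 6) and H2-Ab1 from -0.0872 to 0.0028 (without virgin replicate 2).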
